A study of Mus musculus with 6 samples.

Results

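The MYC, MAX and MXD network is a set of transcription factors that pair through a basic helix-loop-helix leucine zipper and bind the DNA letters CACGTG, the E-box. Here it was followed in BV2 cells, a mouse microglial cell line, through 10 genes found by their symbols in the count table: Myc, Max, Mxd1, Mxd3, Mxd4, Mxi1, Mnt, Mga, Mlx and Mlxip. All 10 were among the 46095 gene symbols of the table, and all 10 were among the 14120 genes with enough counts to be tested. The CON group was untreated BV2 cells (3 libraries), and the sTREM-1 group was BV2 cells incubated with recombinant sTREM-1 protein, the soluble form of the receptor TREM-1, at 1 μg/mL for 6 h (3 libraries). Both groups were the same cell line, and the labels do not say whether the libraries came from separate cultures, so the p-values measure only the spread between these libraries, which may be technical. BV2 cells are known to have been immortalized with a retrovirus that carries v-raf and v-myc, so both groups carry a viral relative of Myc. Whether reads of v-myc were counted under the mouse gene Myc was not tested.

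In this network, MAX is the common partner. MYC paired with MAX activates genes of growth and proliferation, and MXD1, MXD3, MXD4, MXI1 and MNT paired with MAX bind the same letters and repress them by recruiting the SIN3 corepressor. MGA also pairs with MAX, within a variant Polycomb complex, while MLX is the partner of MLXIP (MondoA), a sensor of glucose metabolites, and can also bind MNT and some MXD proteins. Myc is known as an early response gene with a short-lived transcript, and the balance between MYC and the MXD proteins is known to shift as cells of the myeloid lineage leave the cell cycle.

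Compared with the CON group, 3 repressor genes, Mxd1, Mxi1 and Mnt, were higher after sTREM-1, by 20.9%, 18.9% and 10.01% (edgeR quasi-likelihood test, Benjamini-Hochberg adjusted p = 2.32e-06, adjusted p = 2.72e-07 and adjusted p = 0.00264). Myc itself was 4.18% higher and Max 3.02% higher, and neither passed the test. No member was called lower by edgeR's quasi-likelihood test, and 0 members were lower at an unadjusted p-value under 0.05, by DESeq2 or by edgeR's exact test. In all, 3 of the 10 genes (30%) were called, while 30.5% of all tested genes were called in either direction and 16.5% were called higher. The share of the network genes that were called was thus near the background. The median log2 fold change of the 10 genes was 0.07, against -0.0017 over all tested genes.

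**Figure D1:**
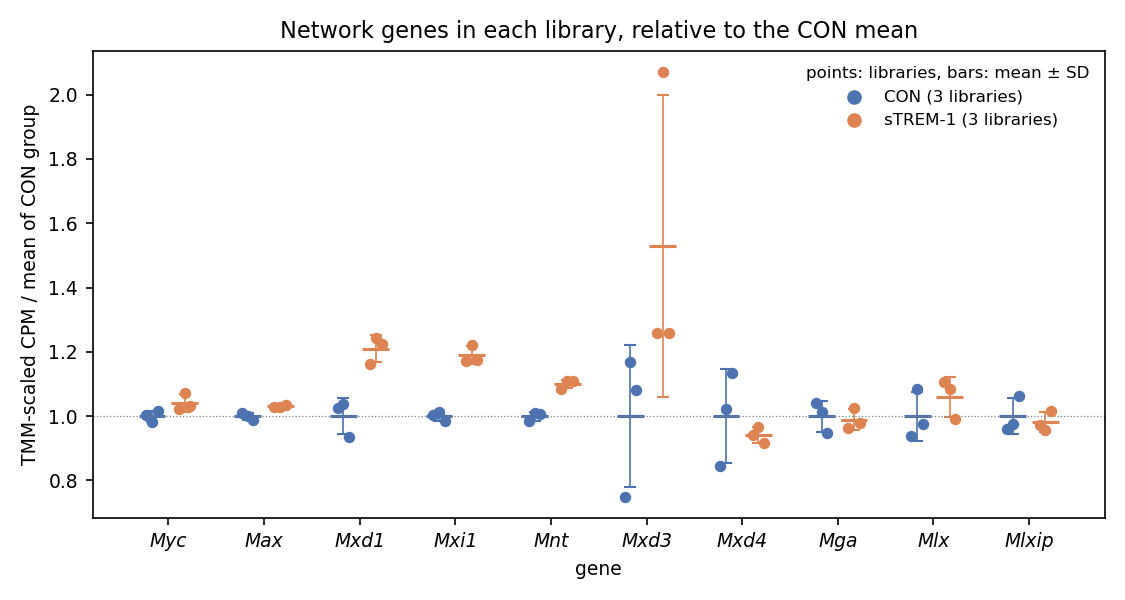
Level (CPM, scaled by TMM) of each network gene in each library, divided by the mean of the CON group, with points for libraries and bars for the mean ± SD of 3 libraries. The points of Mxd1, Mxi1 and Mnt in the sTREM-1 group lie above all points of the CON group, and the points of Mxd3 are the most scattered.

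Mxd1 encodes an MXD repressor that is known to be induced when myeloid cells differentiate. Its level was 78.1, 79.2 and 71.4 CPM (counts per 1000000 counts of the library, after TMM scaling) in CON replicates 1, 2 and 3, and 88.6, 94.8 and 93.3 CPM in sTREM-1 replicates 1, 2 and 3. Every sTREM-1 library lay above every CON library. The log2 fold change was 0.27 (standard error 0.04), and it ran from 0.23 to 0.30 when each library was left out in turn. The gene lies on chromosome 6 of GRCm38 from 86647042 to 86669161 on the minus strand.

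Mxi1, also called MXD2, is a further MXD repressor, and its gene spans chromosome 19 of GRCm38 from 53310518 to 53375810. It had 102.6, 103.6 and 100.6 CPM in the CON libraries and 119.9, 124.9 and 120.0 CPM in the sTREM-1 libraries. The groups were far apart compared with their spread. Its log2 fold change was 0.25 (standard error 0.03). In the annotation, 194 of the exonic bases of Mxi1 are shared with Gm10197 on the other strand, a gene that is not listed in the table.

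Mnt encodes the MAX partner that is present in both resting and dividing cells and antagonizes MYC in both. Its level was 75.7, 77.6 and 77.6 CPM in the CON libraries and 83.5, 85.3 and 85.3 CPM after sTREM-1. All sTREM-1 libraries were again above all CON libraries, with a log2 fold change of 0.14 (standard error 0.03). Mnt lies on chromosome 11 from 74830920 to 74845725 and shares no exonic base with another gene.

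Both other MXD genes were expressed at low levels. Mxd3, which is known to be expressed in S phase, was represented by 16, 25 and 23 reads in CON replicates 1, 2 and 3 and by 30, 46 and 26 reads after sTREM-1. All sTREM-1 libraries were above all CON libraries after scaling, but the values rest on so few reads that the 95% confidence interval of the log2 fold change of 0.61 ran from -0.17 to 1.39 (edgeR quasi-likelihood adjusted p = 0.253). Mxd3 also shares 105 exonic bases with Prelid1 on the opposite strand, whose mean level was 231 ± 4.32 CPM (SD, n = 3) without and 273 ± 4.09 CPM (SD, n = 3) with sTREM-1. The strand setting of the counting is not given in the sources used here, and the part of Prelid1 reads in the Mxd3 counts was not tested.

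Mxd4 had 3.32, 4.02 and 4.46 CPM in the CON libraries and 3.70, 3.80 and 3.60 CPM after sTREM-1. The sTREM-1 libraries lay within the range of the CON libraries, and the interval of the log2 fold change ran from -0.40 to 0.22. Without CON replicate 3 its log2 fold change of -0.09 turned to 0.0098. In the annotation, 514 of the exonic bases of Mxd4 are shared with Gm42846 on the other strand, a gene not listed in the count table.

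**Figure D2:**
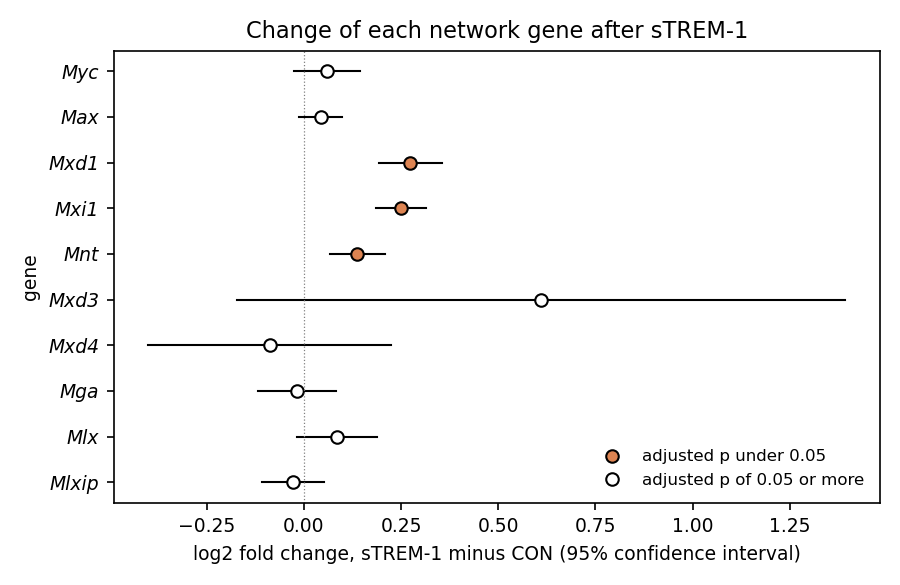
Log2 fold change of each network gene (sTREM-1 minus CON) with its 95% confidence interval from edgeR's quasi-likelihood fit, where filled points mark an adjusted p-value under 0.05. Mxd1, Mxi1 and Mnt are filled and to the right of 0, while the intervals of the other genes include 0 and that of Mxd3 is the widest.

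Myc, on chromosome 15 of GRCm38 from 61985391 to 61990374, had 52.2, 51.1 and 52.9 CPM in the CON libraries and 53.2, 55.9 and 53.7 CPM in the sTREM-1 libraries. The groups did not overlap, but the distance between them was small, with a log2 fold change of 0.06 and a 95% confidence interval from -0.03 to 0.14 (edgeR quasi-likelihood adjusted p = 0.315). No time other than 6 h was measured. Pvt1, the long non-coding RNA gene next to Myc, had a mean level of 11.7 ± 0.084 CPM (SD, n = 3) without and 11.5 ± 0.987 CPM (SD, n = 3) with sTREM-1, and it did not pass the test. The paralogs Mycn and Mycl had 0 counts in all 6 libraries, which allows up to 0.0657 to 0.0756 CPM depending on the library (3 counts, counting error only). This limit holds only if the genes were counted, since Aif1, which microglia are known to express, was also listed at 0 in all libraries.

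Max had 189.9, 188.2 and 185.7 CPM in the CON libraries and 193.5, 193.0 and 194.4 CPM after sTREM-1. The groups did not overlap here either, and the log2 fold change was 0.04 with an interval from -0.01 to 0.10 (edgeR quasi-likelihood adjusted p = 0.246). In total 6 of the 10 genes had sTREM-1 libraries that all lay above the CON libraries, namely Myc, Max, Mxd1, Mxd3, Mxi1 and Mnt, and 0 had them all below. Over all tested genes 21.3% had all sTREM-1 libraries above and 19.4% had them all below, or 40.7% in either direction. The interval of Myc (up to 0.14) lay below that of Mxi1 (from 0.19) and that of Mxd1 (from 0.19). It overlapped that of Mnt (from 0.07 to 0.21), and the difference between these changes was not tested.

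Mga, Mlx and Mlxip did not pass the test, and their groups overlapped. Mga, the largest of the MAX partners, had 41.1, 40.1 and 37.4 CPM in the CON libraries and 38.0, 40.5 and 38.7 CPM after sTREM-1, with an interval of the log2 fold change from -0.12 to 0.08. Mlxip had 80.6, 82.2 and 89.5 CPM against 81.8, 80.3 and 85.5 CPM, with an interval from -0.11 to 0.05. For both genes the sign of the change depended on single libraries. The log2 fold change of Mga, -0.02, became 0.012 without CON replicate 1 and 0.0021 without sTREM-1 replicate 1. That of Mlxip, -0.03, became 0.018 without CON replicate 3. In the annotation, Mlxip shares 267 exonic bases with Gm15747 on the other strand, a gene not listed in the count table.

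Mlx had 46.6, 53.8 and 48.3 CPM in the CON libraries and 54.8, 53.7 and 49.1 CPM in the sTREM-1 libraries. CON replicate 2 stood as high as the sTREM-1 libraries. With all libraries the log2 fold change was 0.08 (edgeR quasi-likelihood adjusted p = 0.223), and without CON replicate 2 it was 0.15 and passed the threshold (adjusted p = 0.0296). Of the exonic bases of Mlx, 19.3% are shared with Psmc3ip on the other strand. Psmc3ip rose from 7.96 ± 0.873 to 9.95 ± 0.886 CPM (SD, n = 3 each, edgeR quasi-likelihood adjusted p = 0.0181), and its part in the Mlx counts was not tested.

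Levels of different genes were compared as CPM per kilobase of annotated exon. On this scale Max was the most abundant gene of the network, with 52.2 ± 0.595 (SD, n = 3) in the CON group. Mlx followed with 24.8 ± 1.89, Myc with 19.2 ± 0.33, Mnt with 16.6 ± 0.235 and Mxi1 with 15.0 ± 0.221. Mxd1 and Mlxip, with 10.8 ± 0.602 and 10.1 ± 0.568, overlapped in the CON libraries, so that their order is not resolved. Mga was at 2.58 ± 0.124, Mxd4 at 0.464 ± 0.0676 and Mxd3 at 0.220 ± 0.0487. The order of the means was the same after sTREM-1, though Mnt (18.3 ± 0.227) and Mxi1 (17.8 ± 0.418) then overlapped. The order depends on the transcript length used. With the longest transcript of each gene in place of all exons, Mxi1 and Mxd1 ranked above Mnt.

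**Figure D3:**
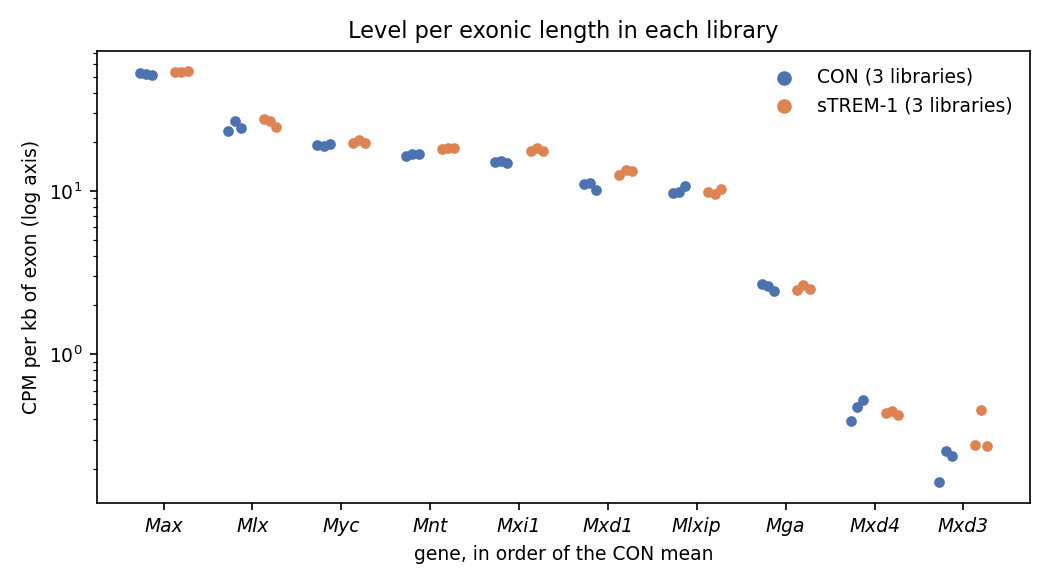
Level of each network gene in each library as CPM per kilobase of exon on a log axis, with the genes in the order of their CON mean. Max is highest and Mxd3 lowest, and the CON and sTREM-1 points are close for every gene compared with the distance from Max to Mxd3.

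MYC and its antagonists share MAX, so the transcripts of the 7 MAX partners were also described as shares of their sum. Myc made up 29.6%, 28.8% and 30.3% of these partner transcripts in the CON libraries and 27.6%, 27.7% and 27.4% in the sTREM-1 libraries. The share was lower in all sTREM-1 libraries, with a difference of the means (sTREM-1 minus CON) of -2.01 percentage points. Mxi1 went from 23.1% ± 0.156 to 24.6% ± 0.221 and Mxd1 from 16.6% ± 0.804 to 17.99% ± 0.312 (SD, n = 3 each). The groups did not overlap for any of these 3 genes. The share of Mga was also lower in all sTREM-1 libraries, with 4.131%, 3.998% and 3.796% in the CON libraries and 3.50%, 3.56% and 3.49% after sTREM-1. Neither Myc nor Mga was called lower in CPM, and the sum of the partner transcripts was larger after sTREM-1 (64.8 ± 0.524 against 72.5 ± 1.69 CPM per kilobase, SD, n = 3 each). For Mnt the share was 25.7% ± 0.432 and 25.3% ± 0.381, with overlapping groups. The sum of partner transcripts relative to Max was 1.23, 1.25 and 1.25 in the CON libraries and 1.32, 1.38 and 1.34 after sTREM-1. With the longest transcript of each gene in place of all exons, Max was at 98.2 CPM per kilobase over all libraries, against 53.0. Myc and Mxi1 were then at 22.7 and 22.2, so the shares and the ratio to Max depend on the length used. The difference of the Myc share was -2.07 percentage points with the longest transcript. These shares join genes chosen as a list, so no test was made of them. They describe transcripts only, and protein levels were not analysed here.

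**Figure D4:**
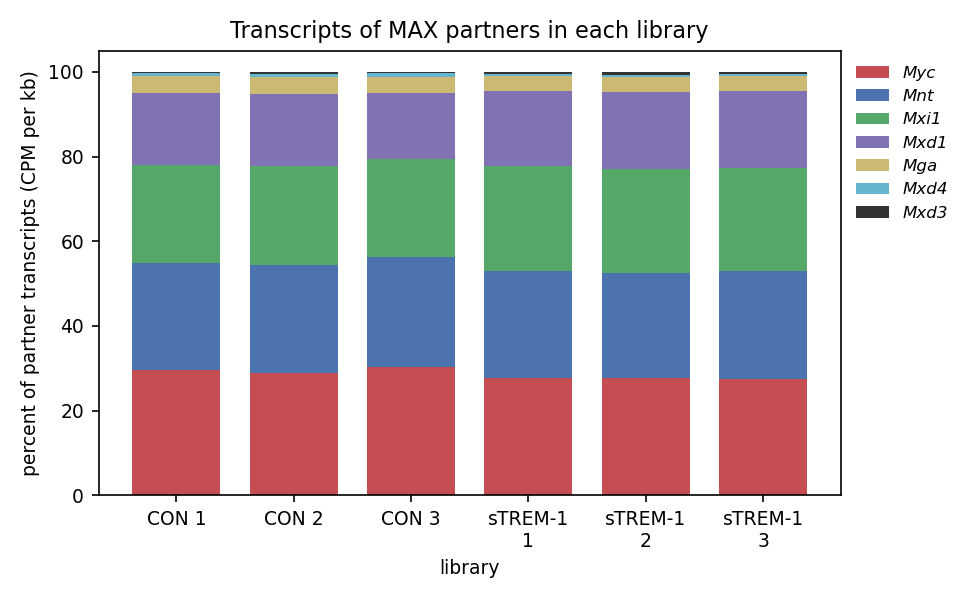
Stacked bars of the transcripts of the 7 MAX partners in each library as percent of their sum, computed from CPM per kilobase of exon. The Myc part spans 28.8% to 30.3% in the CON libraries and 27.4% to 27.7% in the sTREM-1 libraries, and Mga, Mxd4 and Mxd3 form thin bands at the top.

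Since the proteins of the network bind CACGTG, the promoters of its own genes were searched for these letters. The letters are their own reverse complement, so that a match counts for both strands. RefSeq promoter windows (GRCm38.p6, 250 bases before to 50 after the start site) were matched for 9 members, all but Myc. The window held CACGTG in 4 of the 9 (44.4%), namely Max, Mxd4, Mnt and Mlx, against 8.09% of the 27025 genes with a window and 7.15% of all 32851 windows. These backgrounds include genes that were not tested here, whereas all members were. Among tested genes with a window, 1149 held the letters and 8565 did not. Of the 3 genes called higher, only Mnt held it. The windows of Mnt and Mxd1 are shown because both genes rose and the windows differ in this respect, and those of Max and Mlx because their E-boxes lie closest to the start site. Capitals mark CACGTG, and all sequences run 5′ to 3′ on the strand of the gene.
Mnt (chr11:74830674-74830973, plus strand): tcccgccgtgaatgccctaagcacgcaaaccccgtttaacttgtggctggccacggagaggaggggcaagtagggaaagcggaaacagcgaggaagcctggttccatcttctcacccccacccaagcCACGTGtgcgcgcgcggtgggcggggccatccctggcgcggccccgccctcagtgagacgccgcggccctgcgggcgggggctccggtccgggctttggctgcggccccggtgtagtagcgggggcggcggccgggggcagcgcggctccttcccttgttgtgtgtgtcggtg
Mxd1 (chr6:86669110-86669409, minus strand): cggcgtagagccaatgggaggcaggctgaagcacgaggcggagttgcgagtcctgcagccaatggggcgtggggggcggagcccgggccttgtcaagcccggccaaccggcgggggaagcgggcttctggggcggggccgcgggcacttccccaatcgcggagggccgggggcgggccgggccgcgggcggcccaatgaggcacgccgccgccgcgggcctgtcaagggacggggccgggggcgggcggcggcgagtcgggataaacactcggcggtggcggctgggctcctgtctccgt
Max (chr12:76962199-76962498, minus strand): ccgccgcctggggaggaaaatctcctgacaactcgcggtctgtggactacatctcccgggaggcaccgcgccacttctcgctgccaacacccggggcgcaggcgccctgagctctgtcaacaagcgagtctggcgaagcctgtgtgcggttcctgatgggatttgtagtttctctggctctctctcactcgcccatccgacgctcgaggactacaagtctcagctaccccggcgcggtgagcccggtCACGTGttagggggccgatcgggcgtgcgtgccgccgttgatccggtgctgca
Mlx (chr11:101087040-101087339, plus strand): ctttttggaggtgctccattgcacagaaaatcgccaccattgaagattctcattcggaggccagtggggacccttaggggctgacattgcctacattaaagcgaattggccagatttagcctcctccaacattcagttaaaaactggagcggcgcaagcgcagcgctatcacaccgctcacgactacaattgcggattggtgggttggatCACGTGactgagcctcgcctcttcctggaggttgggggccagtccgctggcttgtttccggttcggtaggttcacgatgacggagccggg
Counted from the start site, the first base of the E-box was at -123 in Mnt, at -3 in Max, where it spans the start site, at -40 in Mlx and at -219 in Mxd4. The windows of Mxd3, Mga and Mlxip and the 3 windows of Mxi1 held no CACGTG. Of the genes that hold these letters, Mnt was called higher, and Max, Mlx and Mxd4 did not pass the test.

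Genes that work with the network were listed by role, and each list was read against the 16.5% of tested genes called higher and the 14.1% called lower. Among 15 MYC coactivators, 5 were higher and 0 were lower, and the median of their log2 fold changes was 0.04. At an unadjusted p-value under 0.05, by DESeq2 and by edgeR's exact test, 0 were lower as well. Ruvbl2, an ATPase of chromatin remodelling complexes that bind MYC, rose from 63.9, 67.5 and 65.5 CPM in the CON libraries to 87.0, 83.2 and 97.5 CPM after sTREM-1, a log2 fold change of 0.44 (standard error 0.04). Its partner ATPase Ruvbl1 had 50.9 and 51.4 CPM on average and did not pass the test. The histone acetyltransferase Kat2a and the MYC-binding cofactor Hcfc1 were called higher, with log2 fold changes of 0.21 and 0.10. The coactivators called higher numbered 3 without CON replicate 2 or without sTREM-1 replicate 1.

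The SIN3 corepressor is the complex that MXD proteins and MNT recruit. Of its 18 listed subunits and cofactors, 5 were higher and 0 were lower by edgeR's quasi-likelihood test, while 7 were higher and 1 was lower at an unadjusted p-value under 0.05. DESeq2 called 3 higher and 0 lower, and edgeR's exact test called 5 and 0. Sap30, a subunit that links SIN3 to its deacetylases, had 109.6, 107.7 and 104.5 CPM in the CON libraries and 130.7, 136.9 and 125.2 CPM after sTREM-1, a log2 fold change of 0.29 (standard error 0.03). The corepressor Ncor1 and the scaffold Sin3a followed with 0.21 and 0.12. The list's median log2 fold change was 0.02, close to that of all genes. Its count of higher genes was 2 without CON replicate 2, and 3 without CON replicate 3, sTREM-1 replicate 1 or sTREM-1 replicate 3.

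MGA works with MAX inside a variant Polycomb complex, and 8 of its 9 other listed subunits were tested. Of these, 3 were lower and 2 were higher. Rybp fell from 125.5, 125.2 and 122.4 CPM to 105.2, 97.8 and 99.3 CPM, a log2 fold change of -0.30 (standard error 0.03). Its paralog Yaf2 fell by 0.25 on the log2 scale and Pcgf6, the subunit that defines this variant, fell by 0.13. Both Rybp and Yaf2 also serve in other Polycomb complexes. Tfdp1, the dimer partner of E2F proteins, and the heterochromatin protein gene Cbx3 were higher, with log2 fold changes of 0.18 and 0.22. Without CON replicate 1, 1 subunit was called higher. Ring1 had between 0 and 18 counts and was not tested.

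MYC protein is short-lived, and 19 genes of its turnover were tested, of which 3 were higher and 1 was lower. Fbxw7, the ubiquitin ligase subunit that recognizes phosphorylated MYC, had 38.5 ± 1.21 and 39.98 ± 1.5 CPM (SD, n = 3 each) and did not pass the test. Aurka, a mitotic kinase known to protect MYC proteins from that ligase, rose from 57.6, 54.0 and 55.2 to 70.7, 73.3 and 71.5 CPM. Ppp2r5a, a regulatory subunit of the phosphatase PP2A that acts on MYC, rose from 119.2, 116.7 and 112.8 to 141.0, 143.4 and 140.2 CPM. Gsk3b, the kinase that marks MYC for FBXW7, had a log2 fold change of -0.11 (edgeR quasi-likelihood adjusted p = 0.00348). The lower genes numbered 2 without CON replicate 3 or without sTREM-1 replicate 3.

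The list of genes that MYC is known to induce, mostly of ribosome biogenesis, metabolism and DNA replication, was divided. Of 67 tested genes, 20 were higher and 15 were lower (52.2% called), and the median log2 fold change was 0.01. Ldha, the glycolytic lactate dehydrogenase, the replication helicase subunit Mcm5 and the hexokinase Hk2 were the higher genes of smallest adjusted p, with log2 fold changes of 0.46, 0.44 and 0.24. Odc1, which makes polyamines and is a classic MYC target, fell from 573.4, 544.5 and 572.1 CPM to 342.0, 334.3 and 353.5 CPM, a log2 fold change of -0.71 (standard error 0.03). The nucleolar genes Nop58 and Utp20 fell by 0.21 and 0.27 on the log2 scale. Nop56, whose protein forms a dimer with NOP58, was higher, with a log2 fold change of 0.09. The abundant nucleolar genes Ncl and Npm1 had log2 fold changes of -0.05 (called lower) and 0.03 (not called), and the cell cycle kinase gene Cdk4 had 0.08 (called higher, with overlapping groups). Without CON replicate 1 or without sTREM-1 replicate 2, 9 genes of this list were lower.

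Of 6 tested genes that MYC is known to repress, 1 was higher and 2 were lower. Cdkn1a, the inhibitor p21 of cyclin-dependent kinases, rose from 75.2, 80.8 and 83.0 to 93.6, 91.3 and 89.3 CPM, a log2 fold change of 0.20. The stress response gene Gadd45a and the matrix protein gene Thbs1 fell by 0.38 and 0.74 on the log2 scale.

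Of 4 tested genes known to respond to MondoA or ChREBP with MLX, 3 were lower and 0 were higher, and 0 were also called higher by DESeq2 and by edgeR's exact test, while 1 was higher at an unadjusted p-value under 0.05. Txnip, which restrains glucose uptake, had 2129, 2126 and 2110 CPM in the CON libraries and 1878, 1904 and 1890 CPM after sTREM-1, which is -0.17 on the log2 scale with a standard error of 0.02 (adjusted p = 1.08e-08 in edgeR's quasi-likelihood test). Its relative Arrdc4 went from 177.8, 179.6 and 181.1 to 164.0, 167.6 and 168.0 CPM, and Klf10, a zinc finger repressor gene, from 107.4, 110.8 and 112.9 to 100.3, 97.4 and 94.96 CPM. Of the 4 tested genes, these 3 had all sTREM-1 libraries below all CON libraries, and 1, Tkfc, had them all above. Over all tested genes 19.4% had them all below and 21.3% had them all above. Tkfc had a log2 fold change of 0.17 (adjusted p = 0.128), and the liver genes Pklr and G6pc had 0 counts. Mlxipl, which encodes ChREBP, had 1 to 13 counts per library and was not tested, so that Mlxip was the expressed MLX partner of this pair.

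**Figure D5:**
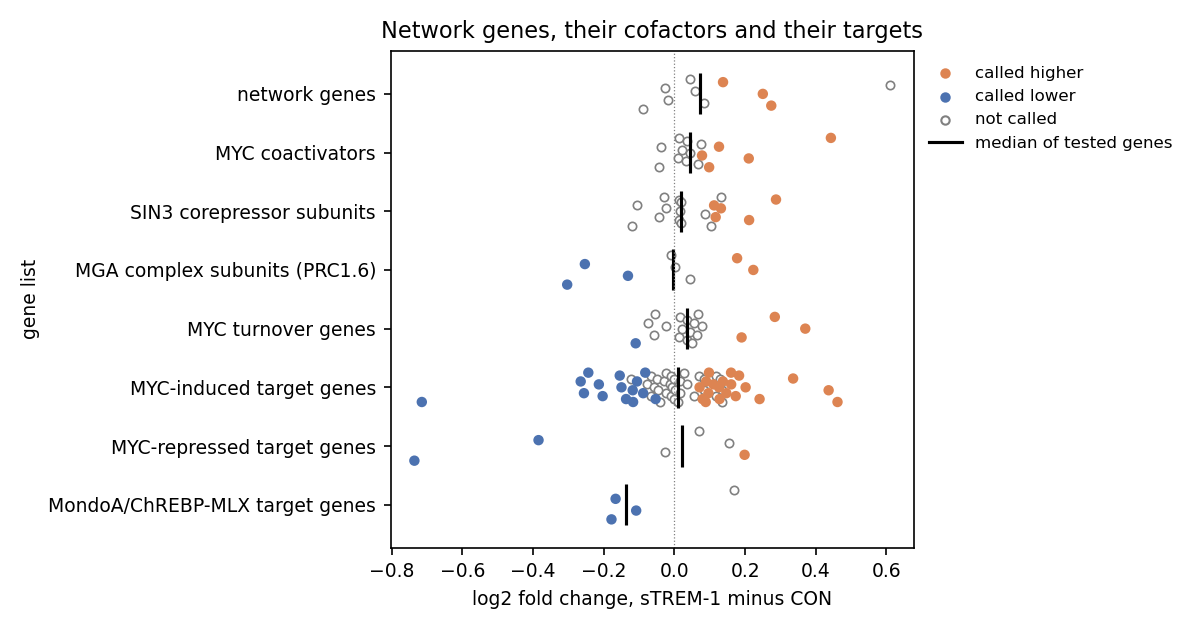
Log2 fold change (sTREM-1 minus CON) of each tested gene of the network and of the lists of its cofactors and targets, 1 point per gene, with orange and blue points for genes called higher and lower and a black line at the median. The MYC-induced targets spread to both sides of 0 (20 higher and 15 lower), whereas 3 of the 4 MondoA/ChREBP-MLX targets lie below 0.

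The libraries held 40070633 to 45877107 counts, and the biological coefficient of variation of edgeR, which measures the spread within groups, was 3.99%. Of 14 microglia and macrophage markers, 12 were above 1 CPM on average. Their summed level was 3204 to 3232 CPM in the CON libraries and 3548 to 3598 CPM after sTREM-1, with Csf1r giving the largest part of the rise. Cx3cr1, P2ry12 and Tmem119 were low, with means of 0.94, 0.67 and 1.47 CPM in the CON group and 1.77, 1.13 and 1.45 CPM after sTREM-1. Of the 13 tested, 10 had a positive log2 fold change, and 6 were called higher and 0 lower (46.2% called). Among all tested genes, 16.5% were called higher and 14.1% lower. The markers did not all move alike. Csf1r, the receptor that sustains microglia, was at 521 CPM on average in the CON group and 753 CPM after sTREM-1, whereas Cd68 was at 605 and 589 CPM and Tyrobp at 300.4 and 292.6 CPM, and neither of these passed the test. Aif1, a defining gene of microglia, was listed at 0 in all libraries. The summed markers of neurons, of which Syn1 made up nearly all, were at 30.9 to 31.5 CPM in the CON libraries and 26.4 to 27.5 CPM after sTREM-1. Those of oligodendrocytes summed to 7.29 to 7.91 CPM in the CON libraries and 5.58 to 6.70 CPM after sTREM-1, and those of astrocytes and fibroblasts to at most 0.479 and 0.962 CPM in any library. The part of these markers in the results was not tested. In bulk libraries, a change in the share of dividing cells and a change in each cell cannot be told apart.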

How the data were processed

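RNA of 3 CON and 3 sTREM-1 libraries of BV2 cells was analysed, as many as the labels give, while the methods state a larger n. The deposited values are raw counts for each gene symbol. Per the methods, the authors ran FastQC on the reads, RSEM for quantification and edgeR for differential expression. The submitters' processing notes name HISAT2 2.0.4 and the human builds hg19 and GRCh38, although the symbols are those of mouse genes. The build, annotation and strand used for the counts are therefore not resolved, and coordinates, exon lengths and overlaps were taken from GENCODE M21 (GRCm38). Low counts were removed (filterByExpr, minimum count 10), libraries were scaled by TMM, and groups were compared in edgeR 4.0.16 (R 4.3.3) by its quasi-likelihood test without covariates, with Benjamini-Hochberg adjustment over all 14120 tested genes and a threshold of 0.05. CPM values are counts scaled after TMM. The standard error is the log2 fold change divided by the root of its F value. The procedure was tested on simulated data with larger changes than those of the called network genes, so how well changes of their size are found was not tested. The members and gene lists were chosen with earlier results of these data known, and no list was tested. The lists were compiled from general knowledge, and C330027C09Rik was used for Cip2a. From each list, up to 3 called genes per direction of smallest adjusted p and with groups that do not overlap were named, besides all members and Odc1, Cdk4, Ncl, Npm1, Cdkn1a, Txnip, Arrdc4 and Fbxw7. Ruvbl1, Nop56, Tkfc, Pklr, G6pc, Ring1 and marker genes were named after their values were seen. Alternatives were DESeq2 1.42.0 size factors (RLE), other filters, DESeq2, edgeR's exact test, a replicate block, a minimum fold change, and leaving out each library. With at least 40070633 counts per library, counting error matters mainly for genes of few reads, such as Mxd3. Libraries of a group differed by more than sampling noise (chi-square per gene from 3.45 to 4.99) and were each kept as a replicate.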

Additional observations from a re-analysis of the deposited data

How the results depend on the processing

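Among the 10 network genes, the calls of Mxd1, Mxi1 and Mnt were kept under all alternatives of scaling, filter, test and replicate block and in each of the 6 fits that left out a library, and Mlx was also called without CON replicate 2 (0.15, adjusted p = 0.0296 in edgeR's quasi-likelihood test). Reversed signs were those of Mxd4 (0.0098 without CON replicate 3), Mga (0.012 without CON replicate 1 and 0.0021 without sTREM-1 replicate 1) and Mlxip (0.018 without CON replicate 3), none of which passed the test. Without each library in turn their values ran from -0.20 for Mxd4, from -0.057 for Mga and from -0.057 for Mlxip up to these. With at least a 1.2-fold change, 1517 genes (10.7% of those tested) and 1 network gene, Mxd1, were called, as were 1 coactivator, 1 SIN3 subunit, 0 higher and 1 lower subunit of the MGA complex, 0 lower turnover genes, 3 higher and 2 lower MYC-induced targets, 0 higher MYC-repressed targets and 0 targets of MondoA/ChREBP-MLX. The other counts that moved by more than 1.5 times were 3 higher SIN3 genes with DESeq2 and 2 lower turnover genes with RLE size factors, with at least 10 counts in every library and with DESeq2. Over the fits that left out a library, 3608 to 3863 genes were called in all, 3 to 4 network genes, 3 to 5 coactivators, 2 to 5 higher and 0 to 1 lower SIN3 genes, 1 to 2 higher and 2 to 3 lower MGA complex genes, 2 to 4 higher and 1 to 2 lower turnover genes, and 14 to 20 higher and 9 to 15 lower MYC-induced targets. The difference in the Myc share of MAX partner transcripts (sTREM-1 minus CON) ran from -2.39 to -1.65 percentage points. The lone SIN3 gene called lower appeared without sTREM-1 replicate 3.

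With a replicate block in the fit, 4613 genes were called in place of 4312, 3 network genes remained higher, and 1 lower SIN3 gene and 2 lower turnover genes were called. Deviations of same-numbered libraries correlated at -0.018, -0.033 and -0.014 across genes, which gives no sign that the numbers pair the libraries. Apart from fewer libraries or a minimum fold by construction, the cause was not tested.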

Other observations

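The letters CACGTG are also bound by other helix-loop-helix factors, among them USF and TFE proteins. Of 1149 tested genes whose RefSeq promoter window held them, 15.1% were called higher and 20.5% lower after sTREM-1, with a median log2 fold change of -0.017. Of 8565 tested genes whose window did not, 18.8% were higher and 14.5% lower, with a median of 0.0038. Among the MYC-induced targets with a window, 7 of 17 genes with the letters were higher and 6 lower, and 11 of 43 genes without them were higher and 9 lower. These are counts over genes, which are not independent replicates, and the difference was not tested.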
